A study of Mus musculus with 8 samples.

Results

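The interferon-gamma-inducible GTPases are 10 of the 55450 genes in the count table, taken by name: the guanylate-binding protein genes Gbp2, Gbp3, Gbp4, Gbp5, Gbp7, Gbp8 and Gbp9, and the immunity-related GTPase (IRG) genes Irgm1, Igtp and Iigp1. They were measured in 8 libraries of myeloid cells sorted by flow cytometry from GL261 tumors, an isogenic mouse glioma line implanted orthotopically into wild-type (WT) mice. Microglia, the resident macrophages of the brain (3 libraries), were F4/80+ CD11b+ CD45lo CD49dlo/- cells, and bone marrow-derived macrophages (BMDM, 5 libraries), which enter the tumor from the blood, were F4/80+ CD11b+ CD45+ CD49dhigh cells. Cells of both gates were LY6Clo/- and LY6G-, and all came from tumors. The labels name no age. They also do not say whether each library is a separate mouse, and the p-values therefore reflect library-to-library spread that may be technical. All 10 genes passed the filter on low counts.

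Guanylate-binding proteins and IRG proteins are large GTPases that interferon-gamma induces in macrophages through the receptor IFNGR and the kinases JAK1 and JAK2, with the transcription factor IRF1 among those that act on their promoters. They gather on membranes of vacuoles that hold intracellular microbes and on bacteria in the cytosol, where they disrupt the compartment and feed inflammasomes. Among the IRG proteins, Irgm1 and Igtp (also called Irgm3) regulate the family from host membranes, and Iigp1 (also called Irga6) is an effector that loads onto vacuoles. In macrophages these genes are commonly read as markers of an interferon-gamma response.

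The guanylate-binding protein genes among the members lie in clusters. Gbp5 (142493978 to 142522344), Gbp7 (142530342 to 142550149), Gbp3 (142560026 to 142573209) and Gbp2 (142620602 to 142638008) follow each other on the plus strand of chromosome 3 (mm10, GENCODE M21). Gbp8 (105014150 to 105139540), Gbp9 (105077630 to 105139539) and Gbp4 (105115767 to 105139586) overlap on the minus strand of chromosome 5, where their annotated exons share 60 or 61 bases with another gene. Irgm1 (48861968 to 48871683, minus strand) and Igtp (58199556 to 58207591, plus strand) are on chromosome 11. Of the exon bases of Igtp, 8.0% are also exons of its neighbor Irgm2, and of those of Gbp7, 11.3% are also exons of a processed pseudogene. Sequence shared between genes was low where 3′ end libraries read. Of the 75-base words in the last 500 bases of its transcripts, Gbp4 shared 8.0% with another gene's transcripts, and the other 9 members shared 0.0% to 1.3%.

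Promoter windows from RefSeq (GRCm38.p6; 250 bases before to 50 after the start) matched 6 of the 10 genes. Both strands were searched for the interferon-stimulated response element (ISRE) letters (GAAA, any 2 bases, GAAA; TTTC in place of GAAA on the other strand) and for the gamma-activated site (GAS) letters TTCNNNGAA. The ISRE letters were present in all 6 matched genes and in 3.44% of 32851 windows of the same length. The GAS letters were present in 3 of the 6, Gbp5, Gbp7 and Igtp, and in 8.3% of all windows, and both were present in these 3 genes and in 0.454% of windows. Gbp3 has 2 windows, and the one further downstream held neither. No GAS match overlapped an ISRE match, while the paired ISRE matches of Irgm1, and those of Gbp3, overlap each other. The 200 bases before the RefSeq start are given for 4 genes, 5′ to 3′ on the gene's strand with the matched letters in capitals. Gbp5 and Irgm1 are shown because they had intervals on opposite sides of 0 in the comparison below. Gbp7 and Igtp are shown because they also hold both motifs. For Gbp5 and Irgm1 the RefSeq start used lies inside the GENCODE M21 gene given above, and so does the stretch shown.
Gbp5 (chr3:142496734-142496933, plus strand): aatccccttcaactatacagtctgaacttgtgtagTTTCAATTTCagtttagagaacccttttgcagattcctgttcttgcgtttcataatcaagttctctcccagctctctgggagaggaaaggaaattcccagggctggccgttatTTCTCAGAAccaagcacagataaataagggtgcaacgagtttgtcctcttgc
Gbp7 (chr3:142530136-142530335, plus strand): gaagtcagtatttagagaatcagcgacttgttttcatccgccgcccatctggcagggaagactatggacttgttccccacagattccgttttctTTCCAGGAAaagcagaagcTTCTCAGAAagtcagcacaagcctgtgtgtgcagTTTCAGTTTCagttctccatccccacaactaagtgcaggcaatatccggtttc
Irgm1 (chr11:48871421-48871620, minus strand): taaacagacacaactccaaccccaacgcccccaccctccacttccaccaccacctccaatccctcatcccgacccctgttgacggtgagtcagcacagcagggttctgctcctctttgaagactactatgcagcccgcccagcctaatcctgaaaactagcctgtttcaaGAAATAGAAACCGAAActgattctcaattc
Igtp (chr11:58199356-58199555, plus strand): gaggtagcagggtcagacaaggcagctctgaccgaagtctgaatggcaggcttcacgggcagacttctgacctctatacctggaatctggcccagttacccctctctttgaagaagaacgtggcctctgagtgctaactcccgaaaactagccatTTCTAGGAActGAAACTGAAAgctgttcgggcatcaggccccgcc
In Gbp5 the ISRE match began 165 bases before the start, and in Gbp7, Irgm1 and Igtp the matches nearest the start began 53, 24 and 34 bases before it. A second GAS match of Gbp5, 245 bases before the start, lies outside the stretch shown. A match of letters is a description of the window, and the libraries hold no measurement of binding.

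Library totals ran from 5890406 to 16659154 counts, of which 3207 to 8875 fell on the 10 GTPases. BMDM 4 and BMDM 5 stood apart from the other BMDM libraries, with 13346 and 14638 genes detected against 20011 to 21778 in BMDM 1 to 3 (17572 to 22809 in microglia). The gene model Gm42418, which overlaps ribosomal RNA, took 41.2% and 48.9% of their counts, against 14.8% to 19.8% in BMDM 1 to 3 and 34.0% to 47.05% in microglia. Microglia and monocyte-derived macrophage markers followed the labels, but these lists were chosen with earlier results of these data known. They are a description and no independent check of cell identity. Of 10 microglia markers 8 were lower in BMDM and 0 higher, and of 10 monocyte-derived markers 8 were higher and 0 lower. The first count was 4 without microglia 1, microglia 3, BMDM 1 or BMDM 2 and with library totals alone, and 0 were higher in each of these.

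The GTPases were expressed in both populations at similar summed levels. Their sum was 466.6, 445.4 and 433.9 CPM (counts scaled by library size and by TMM factors, which align the bulk of genes between libraries) in microglia 1 to 3, and 456.8, 397.4, 510.5, 510.5 and 490.6 CPM in BMDM 1 to 5. The groups overlapped in this sum. In bulk libraries a smaller number of expressing cells and less RNA per cell cannot be told apart. Of the 10, 0 were called higher and 0 lower at an adjusted p under 0.05 (edgeR, quasi-likelihood F, Benjamini-Hochberg over the 16467 genes tested), a fit in which 1.11% of genes were called higher in BMDM and 0.814% lower. DESeq2 and limma-voom also called 0 of the 10. Before adjustment, 2 passed 0.05 as higher (Gbp5 and Gbp8) and 1 as lower (Irgm1), that is 3 of 10, while 13.8% of all genes passed in either direction. The median log2 fold change, BMDM minus microglia, was 0.11 over the GTPases and 0.08 over all genes tested, with 6 positive and 4 negative values.

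**Figure D1:**
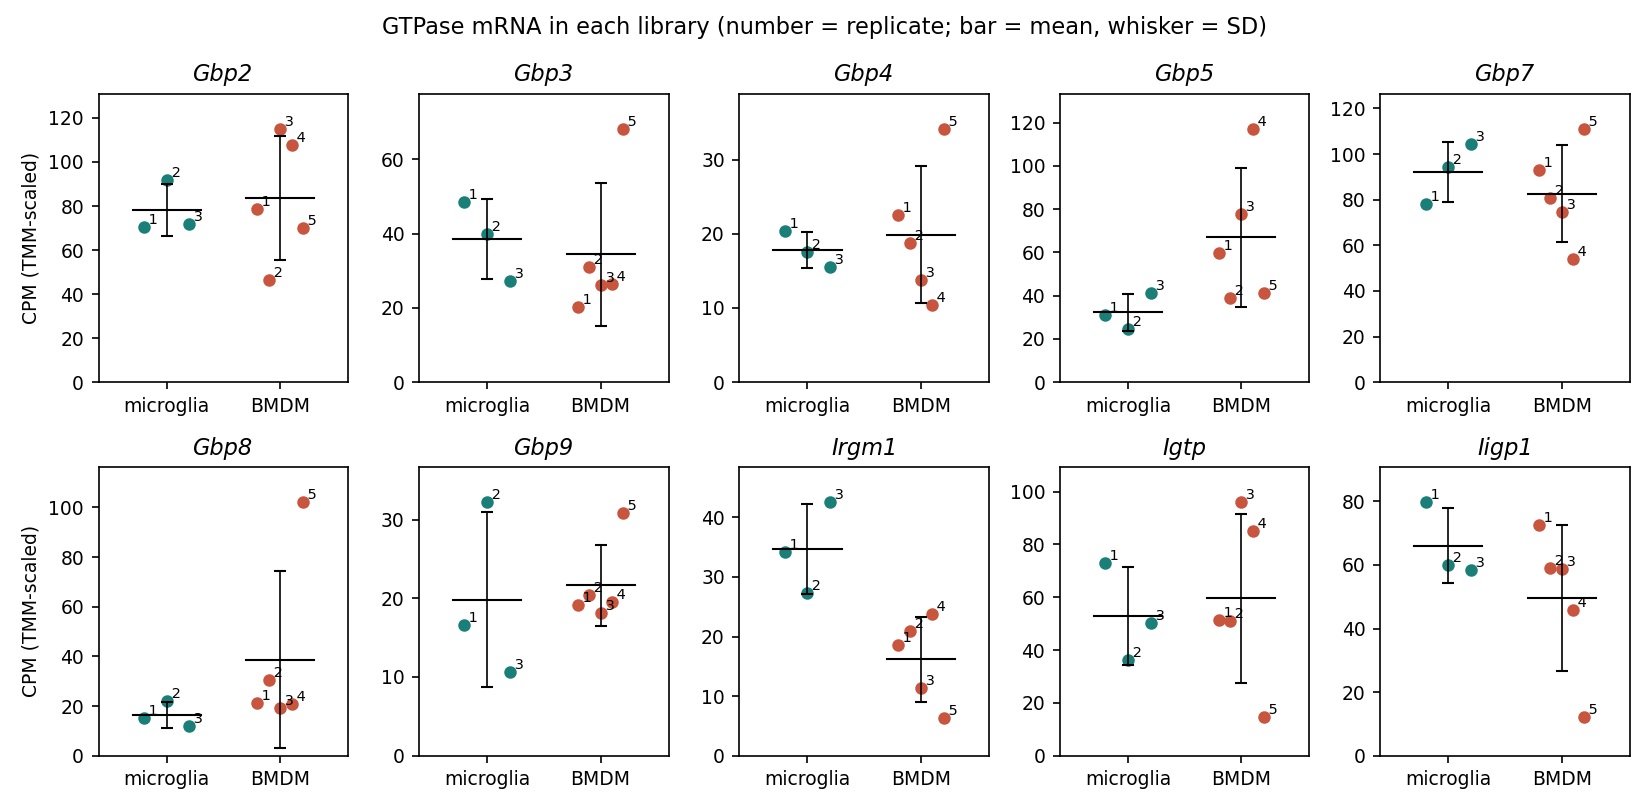
CPM of each GTPase (vertical axis, from 0) in the 3 microglia and 5 BMDM libraries, with the replicate number beside each point, the mean as a bar and the SD as a whisker. Irgm1, which was not called, is the member whose groups do not overlap. Of all genes tested, 8.66% were separated as lower in BMDM and 4.32% as higher. BMDM 5 is the highest or lowest BMDM point for 8 of the 10 genes.

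Irgm1, which keeps effector GTPases inactive on host membranes and acts in autophagy, had the lower level in BMDM in every library. It was at 34.1, 27.4 and 42.5 CPM in microglia 1 to 3 and at 18.5, 20.9, 11.4, 23.7 and 6.36 CPM in BMDM 1 to 5. The highest BMDM library lay below the lowest microglia library, and this was the only member whose groups did not overlap. Over all genes tested, 8.66% were separated in that direction and 4.32% in the other. The means were 34.7 ± 7.58 CPM (SD, n = 3) in microglia and 16.2 ± 7.14 (n = 5) in BMDM, 2.14-fold apart. The log2 fold change was -1.10 (standard error 0.44, 95% interval -2.04 to -0.16), and edgeR's adjusted p of 0.263 missed the threshold of 0.05. The log2 fold change was -0.90 without BMDM 5 and -1.01 with BMDM 1 to 3 alone. Irgm1 was called in 0 of the 18 alternatives. Its adjusted p ran from 0.0522 (edgeR with replicate number as a block) to 0.658 (edgeR without microglia 3).

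Igtp, the other regulatory member measured, did not share this pattern. Its level was 72.8, 36.1 and 50.1 CPM in microglia 1 to 3 and 51.4, 50.9, 95.9, 85.0 and 14.8 CPM in BMDM 1 to 5. BMDM 3 and BMDM 4 were the highest and BMDM 5 the lowest of all 8 libraries, so BMDM spanned a 6.48-fold range around the microglia. The log2 fold change was 0.17 (standard error 0.49, 95% interval -0.87 to 1.20, adjusted p = 0.944).

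Iigp1 on chromosome 18, the effector that damages pathogen vacuoles, was at 79.7, 59.8 and 58.5 CPM in microglia 1 to 3 and at 72.7, 59.0, 58.6, 45.8 and 12.2 CPM in BMDM 1 to 5. BMDM 1 to 3 fell within the microglia range, and BMDM 5 was 5.98-fold below BMDM 1. The log2 fold change of -0.41 (standard error 0.45, 95% interval -1.36 to 0.54, adjusted p = 0.80) went to -0.17 without BMDM 5 and to -0.05 with BMDM 1 to 3 alone.

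Of the chromosome 3 guanylate-binding proteins, Gbp5, which promotes assembly of the NLRP3 inflammasome, had the higher mean in BMDM. Its level was 30.9, 24.4 and 41.4 CPM in microglia 1 to 3 and 59.5, 39.0, 77.8, 117.1 and 41.2 CPM in BMDM 1 to 5. BMDM 1, 3 and 4 lay above all microglia, while BMDM 2 and BMDM 5 lay just under microglia 3. The means were 32.2 ± 8.55 CPM (n = 3) in microglia and 66.9 ± 32.2 (n = 5) in BMDM. The log2 fold change was 1.05 (standard error 0.42, 95% interval 0.16 to 1.95), a 2.08-fold difference with an adjusted p of 0.257. It ran from 0.75 (without BMDM 4) to 1.21 (without BMDM 2) over the 18 alternatives. Gbp5 was called in 2 of the 18 alternatives, of which limma-voom with sample quality weights gave 0.96 (standard error 0.30, adjusted p = 0.0403), and over the alternatives the adjusted p ran from 0.0271 (replicate number as a block) to 0.645.

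The other chromosome 3 members differed little between the group means. Gbp2, which coats Toxoplasma vacuoles and cytosolic bacteria, was at 70.7, 91.9 and 71.9 CPM in microglia 1 to 3 and at 78.6, 46.2, 115, 107.8 and 70.1 CPM in BMDM 1 to 5. BMDM 3 and BMDM 4 were its highest libraries, as they were for Gbp5 and Igtp. Its log2 fold change was 0.10 (standard error 0.36, 95% interval -0.67 to 0.86, adjusted p = 0.959). Gbp7, linked to assembly of the phagocyte NADPH oxidase, was at 77.9, 94.1 and 104.2 CPM in microglia and at 93.1, 80.8, 74.6, 54.0 and 111 CPM in BMDM. Here BMDM 4 was the lowest library and BMDM 5 the highest, with a log2 fold change of -0.16 (standard error 0.33, 95% interval -0.87 to 0.55, adjusted p = 0.914). Gbp3 was at 48.5, 39.8 and 27.3 CPM in microglia and at 20.2, 31.0, 26.1, 26.4 and 68.1 CPM in BMDM. BMDM 1, 3 and 4 lay below all microglia and BMDM 5 above them. The log2 fold change of -0.17 (standard error 0.42, adjusted p = 0.933) went to -0.58 (standard error 0.32, adjusted p = 0.332) without BMDM 5.

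On chromosome 5, BMDM 5 set the group mean of Gbp8. Gbp8 was at 15.1, 22.0 and 11.8 CPM in microglia 1 to 3 and at 21.2, 30.4, 19.3, 20.7 and 102 CPM in BMDM 1 to 5. BMDM 1, 3 and 4 lay inside the microglia range, BMDM 2 above it, and BMDM 5 was 5.28-fold above BMDM 3. The log2 fold change was 1.25 (standard error 0.57, 95% interval 0.03 to 2.47, adjusted p = 0.349), and it was 0.48 (standard error 0.37, adjusted p = 0.529) without BMDM 5. Gbp9 was at 16.6, 32.2 and 10.7 CPM in microglia and at 19.2, 20.4, 18.2, 19.6 and 30.8 CPM in BMDM. BMDM 1 to 4 were close together in this gene, while microglia spread over a 3.01-fold range. Gbp4 was at 20.4, 17.6 and 15.6 CPM in microglia and at 22.5, 18.7, 13.7, 10.3 and 34.1 CPM in BMDM. For both genes the groups overlapped, with log2 fold changes of 0.13 (standard error 0.43, adjusted p = 0.952) for Gbp9 and 0.16 (standard error 0.45, adjusted p = 0.943) for Gbp4, which went to -0.05 and -0.13 without BMDM 5.

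**Figure D2:**
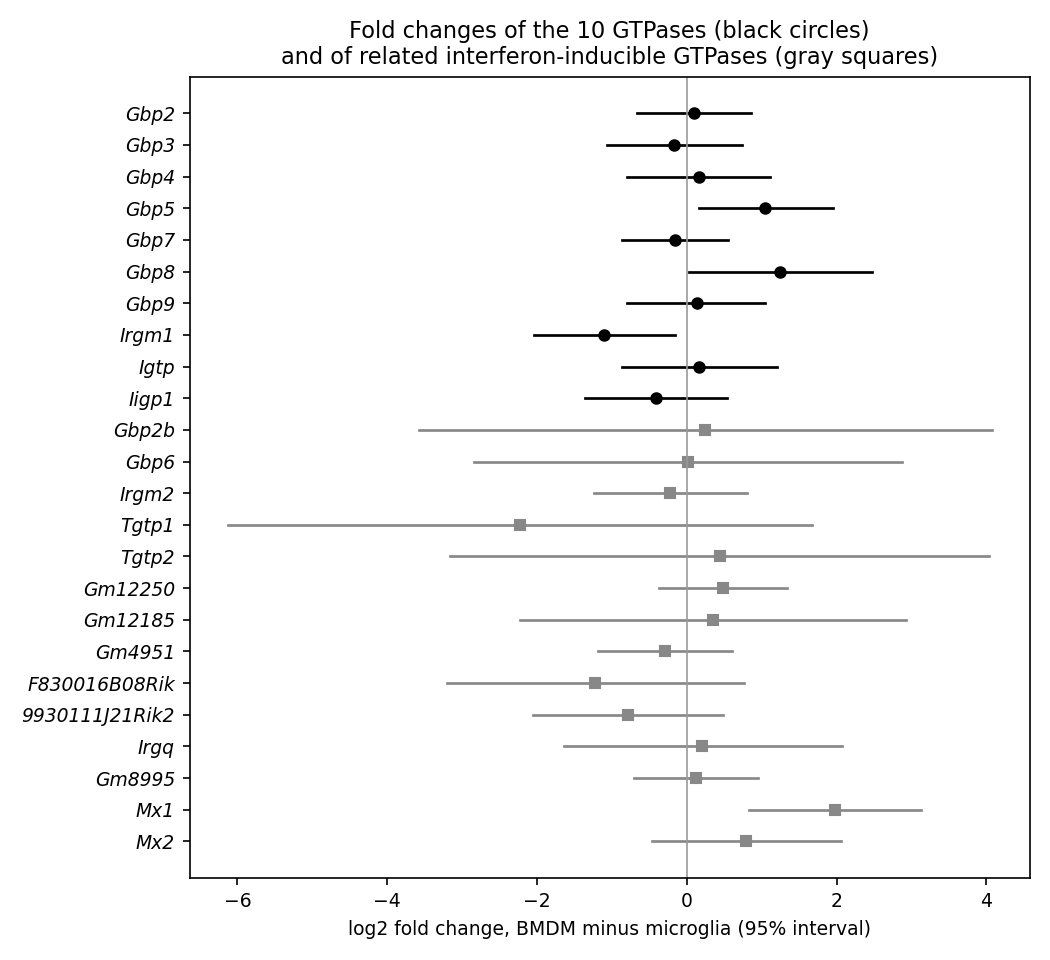
Log2 fold change, BMDM minus microglia, with its 95% interval from edgeR for the 10 GTPases (black circles) and 14 related genes tested (gray squares). The intervals of Gbp5 (0.16 to 1.95), Gbp8 (0.03 to 2.47) and Irgm1 (-2.04 to -0.16) exclude 0 before adjustment, and those of the other 7 members include it.

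The GTPases did not rise and fall together across libraries. Over the 45 pairs of members, Pearson correlations of log2 CPM over the 8 libraries ran from -0.89 (Gbp8 and Iigp1) to 0.78 (Igtp and Iigp1) with a median of -0.23, and 18 were positive. These values share libraries and scaling and are a description. Several of them rested on BMDM 5: without it Gbp8 and Iigp1 were at -0.21 and Igtp and Iigp1 at -0.19, while Gbp8 and Gbp9 stayed at 0.72 and Gbp7 and Igtp went from -0.76 to -0.74.

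BMDM 5 differed from the other libraries in the make-up of the family. The chromosome 5 genes Gbp4, Gbp8 and Gbp9 took 34.0% of its GTPase counts, against 8.77% to 17.5% in the other 7 libraries. The IRG genes Irgm1, Igtp and Iigp1 took 6.79%, against 27.7% to 39.99% elsewhere. The chromosome 3 genes took 59.2%, close to the 48.9% to 59.8% of the others. In counts, BMDM 5 held 46 of Irgm1, 107 of Igtp and 88 of Iigp1, against 738 of Gbp8. Shares within a library do not depend on scaling. BMDM 4, with fewer genes detected than BMDM 5, gave 30.3% to the IRG genes and 9.92% to the chromosome 5 genes, within the range of microglia. BMDM 5 also had few genes detected and a higher share of Gm42418 than BMDM 4 (48.9% against 41.2%). The part of these in the pattern was not tested.

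**Figure D3:**
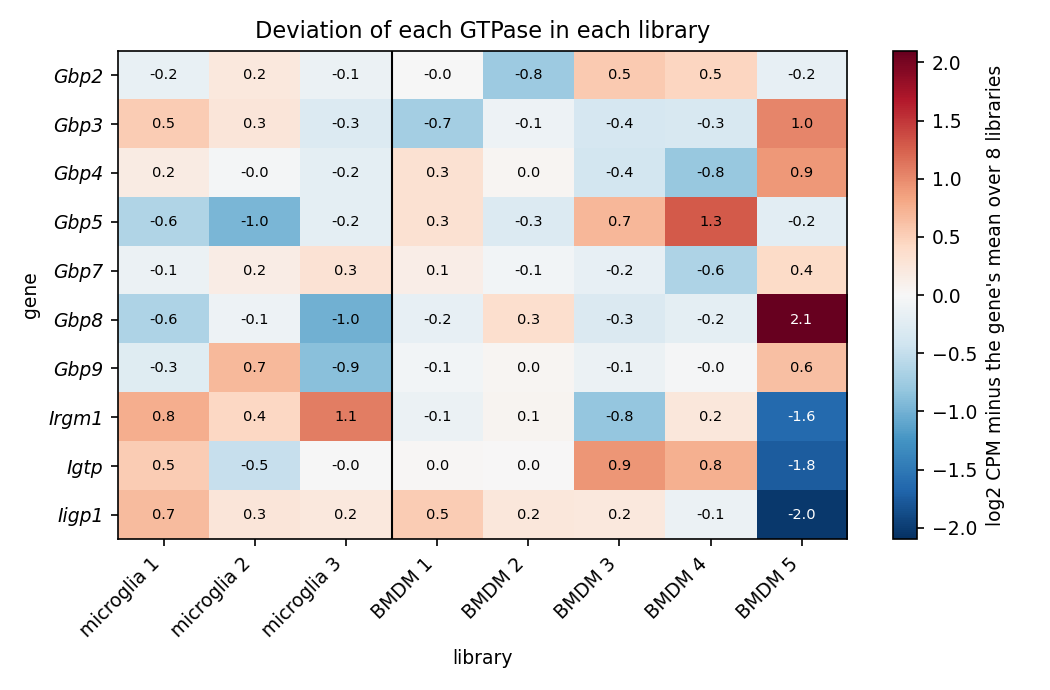
Log2 CPM of each GTPase (rows) in each library (columns) minus the gene's mean over the 8 libraries, red above and blue below. BMDM 5 is lowest for Irgm1, Igtp and Iigp1 and highest for Gbp3, Gbp4, Gbp7 and Gbp8, and BMDM 3 and BMDM 4 are highest for Gbp2, Gbp5 and Igtp.

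Ratios of raw counts between members within a library do not depend on scaling. They were computed for the 45 pairs and are a description, since the share of all gene pairs whose ratios separate the groups was not computed. The widest gap was that of Gbp5 to Irgm1, a pair singled out after the values were seen. Its ratio was 0.905, 0.893 and 0.974 in microglia 1 to 3 and 3.22, 1.86, 6.80, 4.94 and 6.48 in BMDM 1 to 5. The microglia ratios lay within a narrow band, and the lowest BMDM ratio was 1.92-fold above the highest of them (ratios of counts of different genes also hold how well each is captured, so the change between libraries is what can be read). The Irgm1 to Igtp ratio was lower in all BMDM (0.119 to 0.430) than in any microglia library (0.469 to 0.849). The gap there was only 1.09-fold. Of the 45 pairs, 5 had ratios that did not overlap between the groups. Of these 5, 3 held Irgm1, whose own levels did not overlap.

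Genes that followed the mean profile of the members over the 8 libraries most closely were Taf15, Syne1, Ccnd2, Dtna, Map1b, Ccdc6, Celf4 and Pdlim5, with Pearson correlations of 0.891 to 0.814 among 5041 other genes averaging 20 CPM or more. That mean z-score spanned only -0.20 to 0.16, so the likeness is to a nearly flat profile. None of the 8 was called, with log2 fold changes of -0.88 (Map1b) to 0.10 (Dtna).

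Among 28 other GTPases listed, 23 were in the table under these names, 21 had a count and 14 were tested. None was called (0 higher and 0 lower; at an unadjusted p under 0.05, 1 higher; DESeq2 called 1 higher), with a median of 0.17. Irgm2, the remaining regulatory IRG gene, was at 36.9, 27.1 and 15.2 CPM in microglia 1 to 3 and at 14.1, 22.3, 34.3, 33.7 and 9.26 CPM in BMDM 1 to 5. Like the 3 IRG members it was lowest in BMDM 5, and its log2 fold change was -0.22 (standard error 0.48, adjusted p = 0.917). Gm12250, the gene of the IRG protein Irgb10, annotated in M21 as a processed pseudogene, was at 10.8 to 19.1 CPM in microglia and 15.7 to 27.1 in BMDM, with a log2 fold change of 0.48 (standard error 0.40, adjusted p = 0.71). Mx1, an antiviral GTPase of the type I interferon response, had the largest positive value and groups that did not overlap. It was at 11.9, 10.9 and 23.7 CPM in microglia and at 27.3, 28.8, 56.1, 128.5 and 64.7 CPM in BMDM, with a log2 fold change of 1.98 (standard error 0.54, adjusted p = 0.0829). The low-count genes Gbp2b (96 counts in all), Gbp6 (158), Tgtp1 (69) and Tgtp2 (67) gave wide intervals, such as -3.58 to 4.07 for Gbp2b.

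The pathway above the GTPases also showed no call in the main fit. Of 16 genes of the interferon-gamma ligand, receptor and signaling list, 15 were tested. In that fit 0 were higher and 0 lower (1 higher unadjusted), and the median was -0.07. DESeq2 and the fit without a low-count filter each called 1 higher. Limma-voom with quality weights, the replicate block, BMDM 1 to 3 alone and the fit without BMDM 5 each called 1 higher and 1 lower. Ifng itself had 1, 5 and 0 counts in microglia 1 to 3 and 42, 7, 11, 2 and 0 counts in BMDM 1 to 5, under the filter. Ifngr1, the ligand-binding receptor chain, was at 126 to 265 CPM in microglia and at 61.2 to 97.7 CPM in BMDM 1 to 4, with 224.3 in BMDM 5, and had a log2 fold change of -0.77 (standard error 0.44, adjusted p = 0.502). Irf1, which drives transcription of many GTPase genes, was at 220, 170 and 215 CPM in microglia and at 276, 170, 474, 817 and 318 CPM in BMDM, with 1.03 (standard error 0.48, adjusted p = 0.369). Socs1, a feedback inhibitor of JAK kinases, did not overlap between groups (11.5 to 17.9 CPM in microglia, 20.3 to 195.6 in BMDM), with 2.20 (standard error 0.69, adjusted p = 0.144). Irf1 and Socs1 were both highest in BMDM 4 and next in BMDM 3, the libraries in which Gbp5 was also highest.

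Other genes that interferon-gamma induces differed more between the groups than the GTPases did in their medians. In that list 29 of 30 genes were tested, 5 were higher in BMDM and 0 lower (DESeq2 called 13 higher, limma-voom 4 and limma-voom with quality weights 17), and the median was 1.20 against 0.11 for the GTPases and 0.08 for all genes; the difference between the lists was not tested. The called genes were the class II genes H2-Ab1, H2-Aa and H2-Eb1, their transactivator Ciita, and Slamf7, a surface receptor. Ciita had a log2 fold change of 2.68 (standard error 0.59, adjusted p = 0.0275). Counts of calls in this list moved with single libraries, being 0 without microglia 2 or microglia 3, 1 without microglia 1, 3 without any 1 of BMDM 1 to 4 and 11 without BMDM 5. Cxcl9, a chemokine induced by interferon-gamma, was at 110 to 185 CPM in microglia and 169 to 838 in BMDM (1.62, SE 0.52, adjusted p = 0.151). Nlrc5, the class I transactivator, and Cxcl10 were at -0.13 (standard error 0.47, adjusted p = 0.956) and -0.07 (standard error 0.46, adjusted p = 0.976). Of 31 type I interferon-stimulated genes tested, 0 were higher and 0 lower (10 higher unadjusted; DESeq2 called 4 higher), with a median of 0.78, and 8 were higher without BMDM 5.

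**Figure D4:**
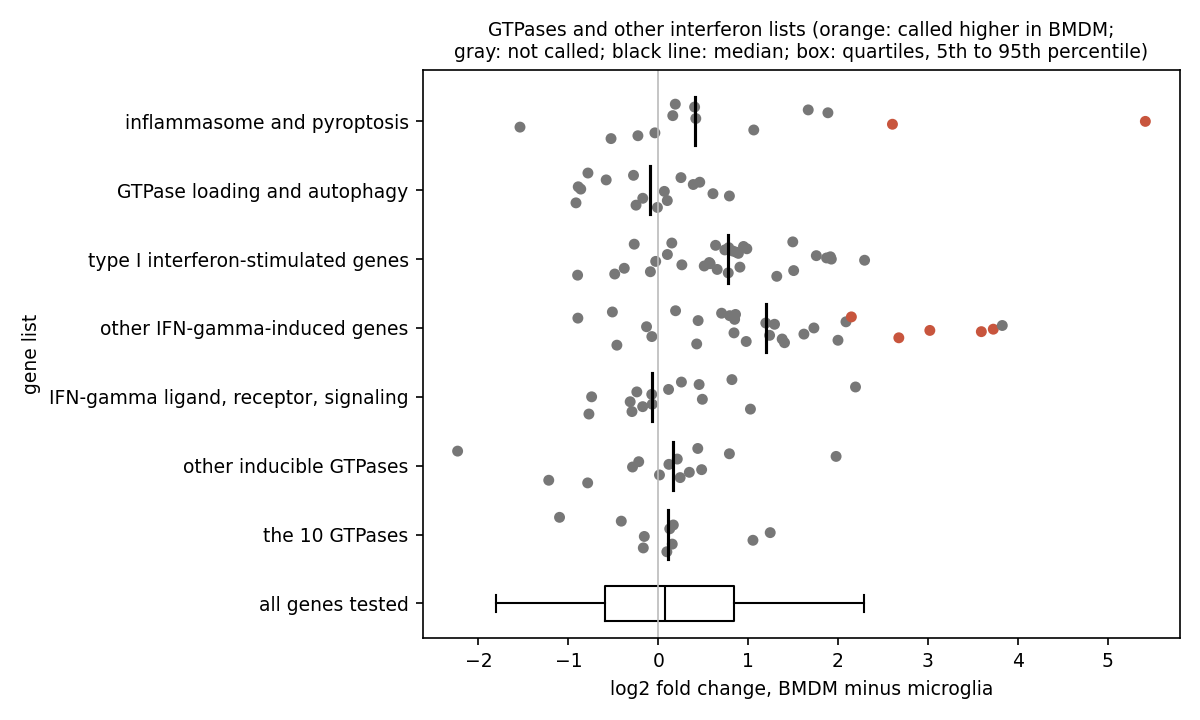
Log2 fold changes, BMDM minus microglia, of the tested genes of each list (points; orange where called higher in BMDM, gray where not called), with the list median as a black line and all 16467 genes as a box of quartiles with whiskers at the 5th and 95th percentiles. The GTPase median of 0.11 lies near that of all genes (0.08), and the median of the other interferon-gamma-induced genes is 1.20.

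Genes that work with or after the GTPases were mixed. Of 16 genes of GTPase loading, autophagy and ubiquitin tagging, 0 were called (0 unadjusted, 0 by DESeq2) and the median was -0.09. Among 13 inflammasome and pyroptosis genes, Mefv, which encodes the sensor pyrin, and Il1b were higher in BMDM and 0 were lower, with 1 called when any single microglia library was left out. Casp4, which encodes caspase-11, the sensor of lipopolysaccharide that guanylate-binding proteins assist, ranged over 96.6 to 201.7 CPM in microglia. BMDM 1 to 3 were lower (28.9 to 46.1 CPM), while BMDM 4 (236.5) and BMDM 5 (314.8) were higher. Its log2 fold change of -0.04 (standard error 0.70, adjusted p = 0.993) averages BMDM libraries on either side of the microglia. Aim2, a DNA sensor that acts after these GTPases free bacterial DNA, was at -0.52 (standard error 0.33, adjusted p = 0.572), Casp1 at -0.23 (standard error 0.44, adjusted p = 0.907) and Gsdmd at 1.06 (standard error 0.58, adjusted p = 0.474). Of 6 genes of protein prenylation, the pathway that gives some guanylate-binding proteins their lipid anchor, 0 were called (1 lower unadjusted, 0 by DESeq2), with a median of -0.11.

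Markers of T and NK cells, which make interferon-gamma, summed to 6.90 to 21.7 CPM in microglia. The sums were 100.8 to 307.4 CPM in BMDM 1 to 4 and 26.1 CPM in BMDM 5. Of these genes 14 of 17 were tested, 1 of them called higher (Trbc2) and 0 lower, while 10 were higher unadjusted and DESeq2 called 8. The edgeR count was 0 without microglia 1, 2 or 3 or without BMDM 1, 3 or 4, and 3 without BMDM 5. Cd3d, a defining T cell gene, reached at most 0.905 CPM in microglia and was at 0 in microglia 3. It was at 6.89 to 27.2 CPM in BMDM 1 to 4 and 0.138 CPM in BMDM 5. Trbc2 and Cd4 were also lowest of the BMDM libraries in BMDM 5 (1.80 and 0.276 CPM). Trac was not: it was at 4.01 CPM in BMDM 5, 0.739 in BMDM 2 and at most 0.841 in microglia. BMDM 5 is also the library with the lowest IRG levels, which summed to 33.3 CPM. Microglia, whose T and NK marker sums were lower still, had IRG sums of 123.3 to 186.6 CPM. The part of T cells in the GTPase values was not tested. Both sorts were gated on F4/80+ CD11b+ cells, and the number of T or NK cells left in each library was not measured here. Dendritic cell markers gave 1 higher (Ccr7) and 2 lower (Siglech and Fscn1, which microglia express as well) of 11 tested (DESeq2 called 2 higher and 2 lower), with 0 higher when any 1 library other than BMDM 2 or BMDM 5 was left out and 1 lower without microglia 1, microglia 3 or BMDM 3. Their sums overlapped, with 629 to 941 CPM in microglia and 420 to 1690 in BMDM. Of neutrophil and B cell markers 4 of 9 were tested and S100a8 was higher (DESeq2 called 3 higher and 1 lower), with 0 higher without microglia 2, microglia 3 or BMDM 4 and 2 higher without BMDM 5. These sums also overlapped (34.1 to 39.4 CPM in microglia and 34.0 to 102.3 in BMDM). Endothelial and brain cell markers gave 0 calls of 8 tested (1 higher unadjusted; 0 by DESeq2), with sums of 55.8 to 99.1 CPM in microglia and 104 to 155 in BMDM (155.5 in BMDM 5).

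**Figure D5:**
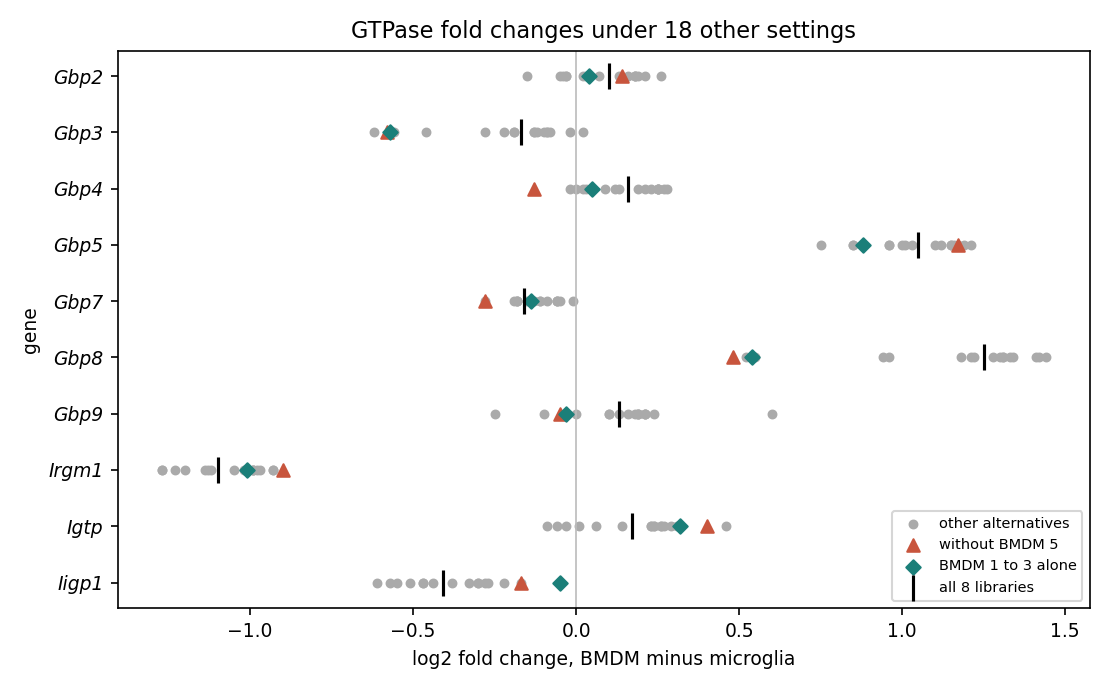
Log2 fold change, BMDM minus microglia, of each GTPase with all 8 libraries (black bar), without BMDM 5 (triangle), with BMDM 1 to 3 alone (diamond) and under the other alternatives (gray), 18 in all. Gbp5 and Gbp8 stay positive and Irgm1, Gbp7 and Iigp1 negative throughout, and Gbp8 goes from 1.25 to 0.48 without BMDM 5.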

How the data were processed

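The values are raw counts of reads by gene, deposited as 1 table, from QuantSeq 3′ FWD libraries (3′ ends of polyadenylated RNA, single reads), per the labels' protocols. Per the submitters' processing notes, tools included STAR and featureCounts on mm10, with cutadapt, FastQC and DESeq2; versions, strand setting and treatment of multiply matching reads are not given in the sources used here. All gene identifiers (100%) were found in GENCODE M21.

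Counts were tested with edgeR 4.0.16 (R 4.3.3; filterByExpr with a minimum count of 10 and total of 15, TMM factors, robust quasi-likelihood fit, Benjamini-Hochberg threshold 0.05) for BMDM minus microglia over the whole table, of which the members' values are printed. Standard errors come from the F statistic, and log2 CPM used a prior count of 2. Library totals were 5890406 to 16659154. No 2 libraries of a group were alike within sampling noise (chi-square per degree of freedom at least 21.4). Alternatives used DESeq2 1.42.0, limma 3.58.1 (voom), RLE factors, library totals, other filters, a replicate block, fewer libraries and removal of Gm42418 and mitochondrial rRNA. Scripts were tested on simulated counts. Members, lists and alternatives were chosen with earlier results of these data known. From each list the text took called genes (up to 5), the largest uncalled values (up to 3, at 5 CPM or more) and 18 genes set by name, with the other GTPases that have a count and the 8 genes most like the members, and gives those that bear on the GTPases. The values of 1 gene of the signaling list are not reported here.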

Additional observations from a re-analysis of the deposited data

Results flagged for a closer look

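Among 91 genes checked in the 5 BMDM libraries, 10 had 1 library separated from the others by more than Dixon's 95% limit. For independent, normally spread values chance alone flags about 1 in 20. These are untransformed CPM of genes that share libraries and were partly picked by their values, so the count is a description. Of the GTPases these were Gbp3 (68.1 CPM), Gbp8 (102.0 CPM) and Gbp9 (30.8 CPM), each high in BMDM 5. BMDM 5 was also high in Ifngr1 (224.3 CPM) and Il18 (29.4 CPM). BMDM 4 was high in Socs1 (195.6 CPM) and Mx2 (42.2 CPM). BMDM 3 was high in Cxcl10 (365.6 CPM), Il1b (3141.0 CPM) and the low-count gene Tgtp1 (1.26 CPM).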

How the results depend on the processing

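Of 18 alternatives, all but 2 called none of the 10 GTPases. These 2 called Gbp5 higher (1 gene): limma-voom with quality weights (median of the GTPases -0.11) and the replicate block (Gbp5 at 0.85, adjusted p = 0.0271; median -0.01). Over all genes, edgeR called 183 higher and 134 lower, against 601 and 313 by DESeq2, 403 and 318 without a filter, 141 and 250 by limma-voom, 1063 and 1668 with quality weights, 1449 and 1774 with the replicate block, and 1028 and 1312 with BMDM 1 to 3 alone. Leaving out 1 library gave 58 (without microglia 3) to 536 (without BMDM 5) higher and 46 to 602 lower, called 0 GTPases, and moved their median from -0.09 to 0.17. Values near 0 changed sign: Igtp to -0.03 with limma-voom, Gbp2 to -0.15 and Gbp9 to -0.10 with quality weights, Gbp2 to -0.05 with the block and Gbp9 to -0.03 with BMDM 1 to 3 alone. With 1 library left out, Gbp2 ran from -0.04 to 0.26, Gbp3 from -0.58 to 0.02, Gbp4 from -0.13 to 0.28, Gbp9 from -0.25 to 0.60 and Igtp from -0.09 to 0.46. The median of all genes ran from -0.23 (limma-voom) to 0.20 (library totals alone). The causes were not tested. The shared replicate numbers were not taken to pair the libraries, since deviations of same-numbered libraries correlated at 0.14, 0.09 and 0.24, although each library correlated best with its own number. Precision was limited: the narrowest 95% interval of a GTPase was -0.87 to 0.55 (Gbp7) and the widest 0.03 to 2.47 (Gbp8).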
